A study of Homo sapiens with 2 samples.

Results

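Nuclear genes for proteins of the mitochondrial ribosome were compared between 2 arrays of the breast cancer line MDA-MB-231, an established human line, in hypoxia. The members are the protein-coding genes that the array's probe table names MRPL or MRPS followed by a digit. They numbered 73 of the 11916 protein-coding genes with a transcript cluster in the deposited table: 48 MRPL genes, named for the large ribosomal subunit, and 25 MRPS genes, named for the small subunit. RNA on the compound 1 array came from cells treated with compound 1, a molecule the study aims at the microRNA miR-544. RNA on the antagomir array came from cells treated with an antagomir, a modified antisense oligonucleotide, against miR-544. Both treatments came 24 hours before hypoxia, and all cells then spent 5 days below 1% oxygen. According to the series design 3 samples were pooled, so each treatment is 1 array of pooled RNA with no replicate. Untreated cells and cells in normal oxygen were not analysed here. The comparison is thus of 2 treatments aimed at the same microRNA. Since neither treatment has a replicate array, no error and no p-value can be given, and every difference below describes these 2 arrays.

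Mitochondria keep a small genome whose messenger RNAs code for core subunits of the respiratory chain and ATP synthase. These messages are translated inside the organelle by a ribosome of its own, whose RNAs come from mitochondrial DNA and whose proteins are all encoded in the nucleus, made in the cytosol and imported. The small subunit binds the message and decodes it. The large subunit joins the amino acids and guides the new chain through an exit tunnel to the inner membrane. Part of the proteins have counterparts in bacterial ribosomes, from which the organelle's ribosome descends, and part are specific to mitochondria. In tumour cells this ribosome is known for supplying oxidative phosphorylation, which hypoxia limits.

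The family was selected on the differences between these same arrays: it was proposed after the MRPL genes had been seen to be lower and the MRPS genes not. The counts and medians of the members are therefore a description with no test. Levels are deposited log2 signals and each difference is compound 1 minus antagomir. Levels of different genes come from different probes, so they only sort genes into ranges of level and are not read as amounts. Vimentin, an established marker of this line, was at 10.49 with compound 1 and 10.61 with the antagomir, while ESR1 was at 5.21 and 5.31, EPCAM at 7.05 and 6.91, and CDH1 was not analysed here.

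The MRPL genes were mostly lower on the compound 1 array, by small amounts. Of the 48 genes, 42 were lower, 5 were higher and MRPL46 had the same value on both arrays, one of 1466 clusters of the whole table with identical values. Beside these counts 54.3% of all protein-coding genes were lower and 44% higher. The median difference was -0.15, with the middle 50% of genes between -0.21 and -0.083, against a median of -0.023 over all protein-coding genes. The MRPS median lay closer to that of all genes. Of the 25 MRPS genes 17 were lower and 8 higher, with a median of -0.031 and a middle 50% from -0.12 to 0.087. The medians of MRPL and MRPS genes thus lay 0.12 apart. Of the MRPL genes 29 were lower past 1.1-fold and 0 higher, where 25.8% of protein-coding genes were lower and 20.3% higher by that much. Among MRPS genes 5 were lower and 3 higher past 1.1-fold. These counts depend on the scaling of the arrays: after quantile normalization, cyclic loess or subtraction of the median of genes at the same level, 15 to 17 MRPL genes were lower and 2 higher past 1.1-fold, while 3 MRPS genes were lower and 6 to 7 higher. The share of all protein-coding genes past 1.1-fold was not counted under these scalings, so no background stands beside these counts. The middle 50% of all protein-coding genes ran from -0.11 to 0.12 after quantile normalization, where 1.1-fold is 0.138. At 1.2-fold, which 9.05% of protein-coding genes passed downward and 8.04% upward, 6 MRPL genes and 1 MRPS gene were lower, and 0 genes of either group were higher. No member passed 1.5-fold, which 0.478% of protein-coding genes passed downward and 0.655% upward.

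**Figure D1:**
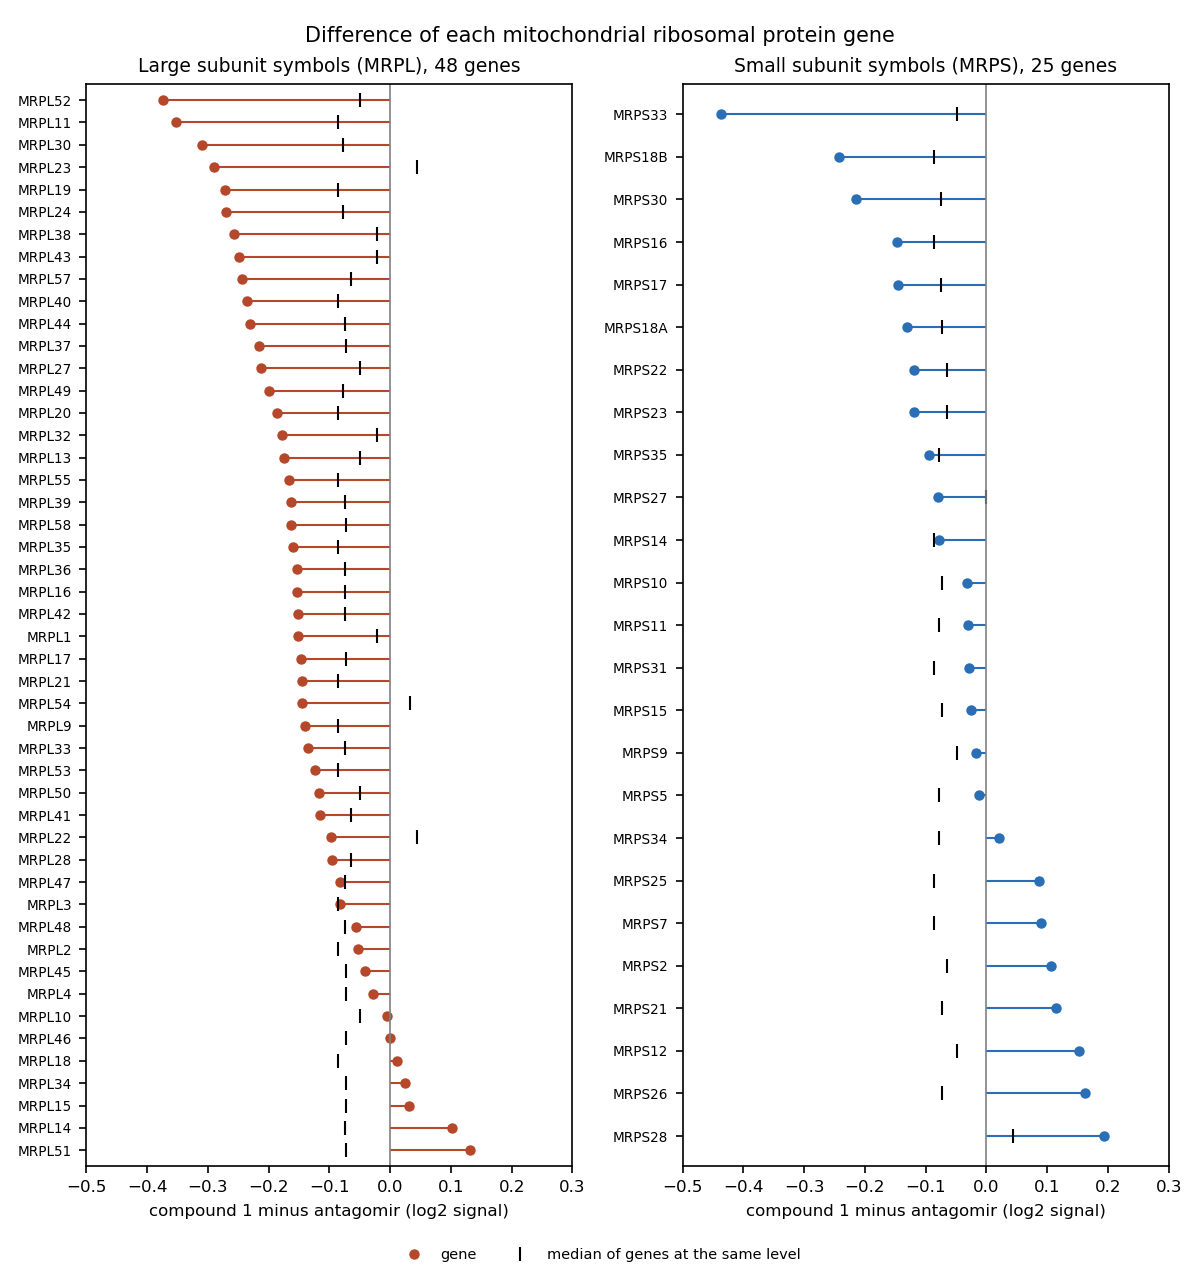
Difference of every member between the arrays (compound 1 minus antagomir, log2 signal), with MRPL genes in the left panel and MRPS genes in the right one, each ordered from lowest to highest. Points are genes, and black ticks are the median difference of protein-coding genes at the same level; 42 of 48 MRPL genes and 17 of 25 MRPS genes lie left of 0.

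Among the MRPL genes MRPL52, which codes for a protein specific to mitochondria, had the lowest difference, at 7.19 with compound 1 and 7.56 with the antagomir (-0.37, or 1.30-fold). MRPL11, whose product sits at the base of the stalk that recruits translation factors, followed at 9.51 with compound 1 and 9.86 with the antagomir (-0.35). MRPL30, with a bacterial counterpart, was at 9.04 with compound 1 against 9.35 with the antagomir. These genes of different parts of the subunit thus stood lowest, each within 1.30-fold. MRPL23 and MRPL24 code for proteins at the mouth of the exit tunnel. MRPL23 was at 6.11 with compound 1 and 6.40 with the antagomir, a difference of -0.29. For MRPL24 the levels were 9.04 and 9.31, in the same order, a difference of -0.27. MRPL19, another protein with a bacterial counterpart, had 7.93 with compound 1 and 8.201 with the antagomir. All 6 of these genes were past 1.2-fold, and they are the only MRPL genes that were.

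Next in order came MRPL38 and MRPL40, whose products belong to the central protuberance at the top of the large subunit. MRPL38 had 6.743 with compound 1 and 7.001 with the antagomir (-0.26), and MRPL40 had 7.86 and 8.09, in that order (-0.24). MRPL43 was at 6.749 with compound 1 against 6.998 with the antagomir, and MRPL57 at 7.49 against 7.73, both coding for proteins specific to mitochondria. The genes just outside these 10 were MRPL44 (-0.23), MRPL37 (-0.22) and MRPL27 (-0.21), so no gap set the lowest genes apart from the rest. The other lower genes followed, from MRPL49 (-0.20), MRPL20 (-0.19), MRPL32 and MRPL13 (-0.18 each) through MRPL55, MRPL35, MRPL36, MRPL16, MRPL42, MRPL1, MRPL21, MRPL54, MRPL9 and MRPL33 to MRPL53, MRPL50, MRPL41 and MRPL28, the last at -0.096, and MRPL3 at -0.083.

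Only 2 MRPL genes were higher on the compound 1 array by more than 0.05. MRPL51, specific to mitochondria, was at 9.01 with compound 1 and 8.88 with the antagomir (0.13). MRPL14, whose product lies at the face that meets the small subunit, was at 8.76 with compound 1 and 8.66 with the antagomir (0.10). MALSU1, an assembly factor that binds the MRPL14 protein, was at 6.933 against 7.001, a difference of -0.068. The other higher genes, MRPL15, MRPL34 and MRPL18, had differences of 0.031, 0.025 and 0.011. MRPL10, whose product forms the stalk together with MRPL12, was at 7.32 with compound 1 and 7.33 with the antagomir, so MRPL11 and MRPL10, which lie side by side in the stalk, stood far apart in the MRPL range. MRPL12 itself, like MRPS6, MRPS18C and MRPS24, was not analysed here.

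The lowest and the highest difference of all 73 members both belonged to MRPS genes. MRPS33, which codes for a small subunit protein specific to mitochondria, had 6.94 with compound 1 and 7.37 with the antagomir, a difference of -0.44 or 1.35-fold. It was the only MRPS gene past 1.2-fold. MRPS28 was at 6.32 with compound 1 and 6.13 with the antagomir (0.19), and MRPS26 at 8.97 against 8.81 (0.16). MRPS12, whose product is part of the decoding centre, followed with 7.32 with compound 1 and 7.16 with the antagomir (0.15). These 3 were the MRPS genes higher past 1.1-fold. On the lower side MRPS16 was at 9.60 against 9.75 and MRPS17 at 8.63 against 8.78, both coding for proteins with bacterial counterparts. MRPS22 (8.14 against 8.26) and MRPS23 (7.71 against 7.83) are specific to mitochondria and had differences of -0.12 each. MRPS35 (-0.094), MRPS27, MRPS14, MRPS10, MRPS11, MRPS31, MRPS15, MRPS9 and MRPS5 (-0.012) followed below 0, and MRPS34 (0.021), MRPS25, MRPS7, MRPS2 and MRPS21 (0.11) lay above it.

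Symbols do not always name the subunit in which a protein lies. The products of MRPS30 and MRPS18A are known to be built into the large subunit, while that of the related gene MRPS18B belongs to the small subunit. MRPS30 was at 8.38 with compound 1 and 8.60 with the antagomir (-0.22), and MRPS18A at 10.31 and 10.44, in that order (-0.13). MRPS18B had 9.762 and 10.004, also in that order (-0.24). All 3 were among the 6 lowest MRPS genes. With MRPS30 and MRPS18A counted by structure, 44 of 50 large subunit members and 15 of 23 small subunit members were lower, with medians of -0.15 and -0.029, again 0.12 apart. The group shift therefore did not hinge on how these genes are assigned.

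Several members had more than 1 transcript cluster, and these give the only repeated reading within an array. MRPS2 had a cluster at 7.81 with compound 1 and 7.71 with the antagomir (0.11) and another at 7.24 and 7.15, in that order (0.098), so both gave about the same difference. In MRPS16 the brighter cluster gave -0.15 and the dimmer one, at 7.54 with compound 1 and 7.46 with the antagomir, gave 0.082, so its direction depends on the cluster. MRPL44 had a second cluster at 2.42 with compound 1 and 1.94 with the antagomir, with a difference of 0.48. The mean over both MRPL44 clusters was 0.12, against -0.23 in the brighter cluster. MRPS18B had 7 clusters with identical values, which are not independent readings. Only the brightest cluster stands for a gene in the counts above.

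Differences depended on level across the whole array, and the members are not spread like other genes. Their mean levels ran from 6.23 to 11.29, all at or above the 50th percentile of all clusters at 5.60, so none was lost to that filter. In 20 bins of level with 595 or 596 protein-coding genes each, the bin median moved from 0.11 in the lowest bin to -0.073 in the highest. Averaged over the bins that hold the MRPL genes, 66.9% of protein-coding genes were lower on the compound 1 array, which would be 32.1 of 48 genes. The observed number was 42. For the MRPS genes the same average was 68.1%, or 17.0 of 25, and the observed number was 17. So the MRPS count matched that of other genes at the same levels and the MRPL count stood above it, as a description of these 2 arrays. The part of pool and hybridisation in either count cannot be told apart from treatment.

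**Figure D2:**
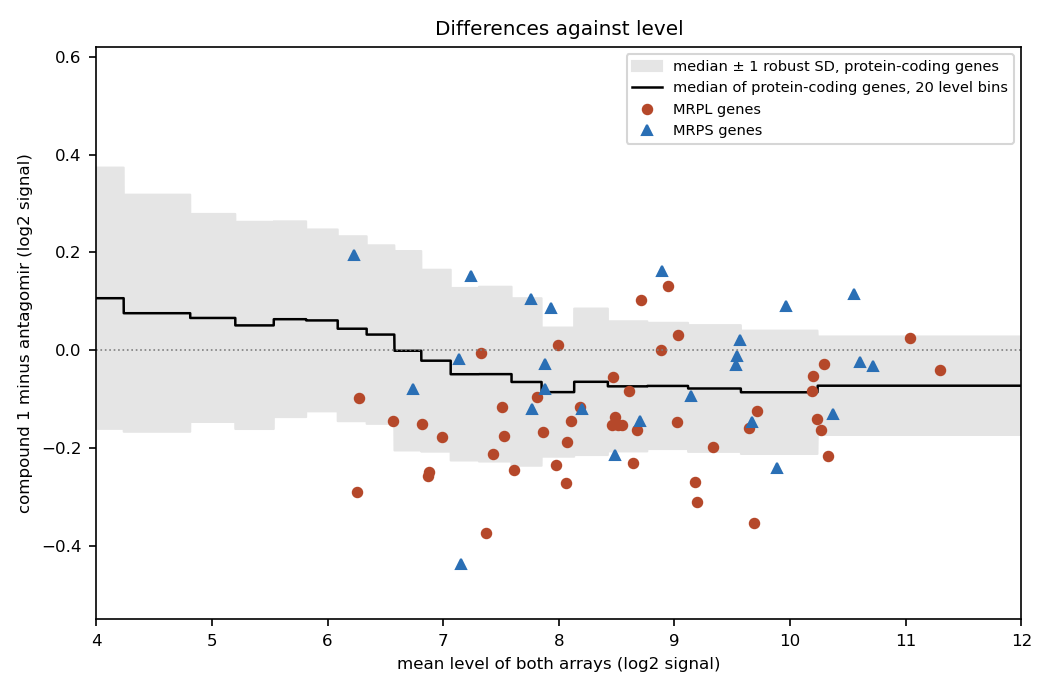
Difference between the arrays (compound 1 minus antagomir, log2 signal) against the mean level of both arrays, for MRPL genes (circles) and MRPS genes (triangles). The line is the median of protein-coding genes in 20 level bins and the shaded band is 1 robust SD to either side within each bin, drawn from a level of 4; 12 of 48 MRPL genes lie below the band and 2 above, and 3 of 25 MRPS genes lie below and 5 above.

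After subtraction of the bin median, 36 of 48 MRPL genes were below their level's median, with a group median of -0.079. Of the MRPS genes 10 of 25 were below it, with a group median of 0.040. The spread of single genes was wide against these shifts. A robust SD, the scaled median absolute deviation of protein-coding genes in a bin, was 0.10 in the highest bin and 0.19 in bin 7, the lowest that holds a member. Of the MRPL genes 34 lay within 1 robust SD of their bin median, 12 below and 2 above, where 16.5% of protein-coding genes lay below and 15.3% above. The MRPL genes below were led by MRPL11 (-2.11 robust SDs), MRPL52 (-1.82), MRPL30 (-1.79) and MRPL23 (-1.77). Of the MRPS genes 17 lay within 1 robust SD, 3 below and 5 above. MRPS33 was at -2.19 robust SDs, followed by MRPS18B and MRPS30, while MRPS21 (1.86), MRPS26 (1.82), MRPS7 (1.40), MRPS25 (1.31) and MRPS12 (1.14) made up the upper end. This describes single genes and sets no scale for the group medians.

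MRPL genes were mostly lower at low and at high levels. In bins 7 to 13 all 14 MRPL genes were lower, where 52.6% of protein-coding genes were. Their median was -0.18, against -0.016 over all protein-coding genes there. In bins 14 to 20 it was 28 of 34 genes, where 71.7% of protein-coding genes were lower. The MRPL median there was -0.15, against -0.077 over all protein-coding genes. After subtraction of bin medians the MRPL medians were -0.16 and -0.067, so the shift against genes at the same levels was smaller in the upper range. The MRPS genes had 4 of 7 lower in the lower range of levels and 13 of 18 in the upper one. Their medians were -0.017 and -0.032, or 0.032 and 0.044 after that subtraction.

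The other scalings moved both groups upward and kept their order. After quantile normalization the MRPL median was -0.088 with 37 genes lower, and after cyclic loess -0.091 with 37 lower. The MRPS median turned to 0.039 and 0.019, with 11 genes lower in each. Beside these, 48.8% of all protein-coding genes were lower under quantile normalization, and their median was 0.0052. Under cyclic loess 51.1% were lower, and the median was -0.0054. The MRPS share of 44% lower in each was thus near this background, somewhat under it. The MRPL share of 77.1% in each stood above it. In the deposited values and after centring, quantile normalization, cyclic loess and subtraction of bin medians, 36 MRPL genes were lower every time and 5 higher every time. The same held for 10 MRPS genes on the lower side and 8 on the higher side. Since these scalings moved the group medians upward, a higher gene was unlikely to turn lower, and none did. The counts of higher genes therefore decide nothing. All scalings re-express the same arrays and are not separate checks. How many of all protein-coding genes kept their direction was not counted, so no background stands beside these counts. MRPL48, MRPL2, MRPL45, MRPL4 and MRPL10 were among the lower genes of the deposited values and turned to small positive values under quantile normalization and cyclic loess.

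**Figure D3:**
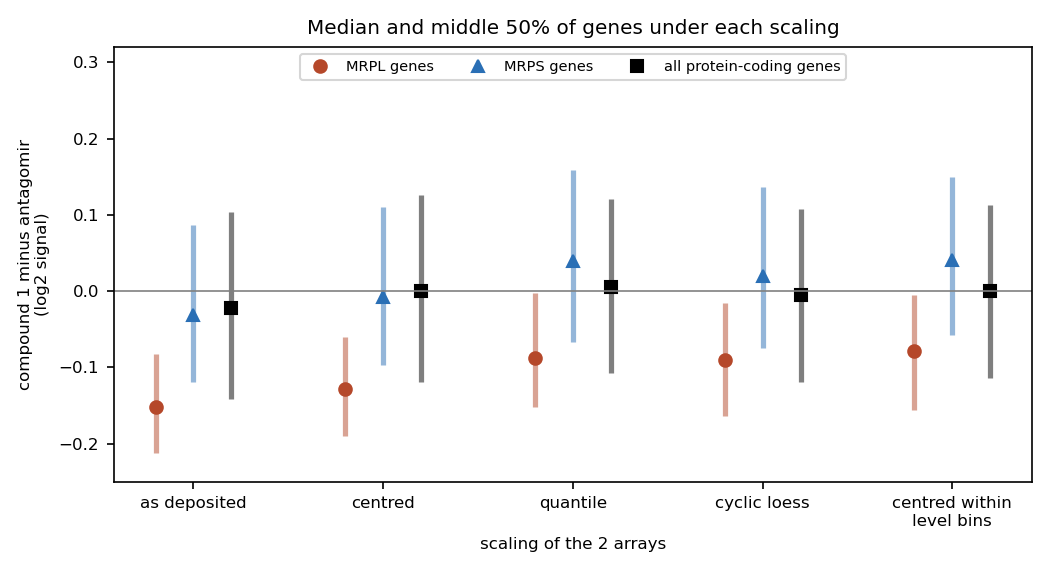
Median difference (compound 1 minus antagomir, log2 signal; symbols) and middle 50% of genes (bars) for MRPL genes, MRPS genes and all protein-coding genes under 5 scalings of the arrays. The MRPL median runs from -0.15 as deposited to -0.079 within level bins and stays under the MRPS median, which runs from -0.031 to 0.040.

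By place in the ribosome, the lists of the exit tunnel and of the messenger channel were changed once with their values known, so their counts are given for both versions and support nothing. All 8 exit tunnel genes (MRPL17, MRPL22, MRPL23, MRPL24, MRPL39, MRPL44, MRPL45 and MRPL47) were lower, with a median of -0.16, and 7 of 8 after quantile normalization, cyclic loess or subtraction of the bin median, each of which turned MRPL45. At the same levels 63.1% of protein-coding genes were lower, or 5.05 of 8. MRPL39 and MRPL47, both lower, were added in that change, and without them 6 of 6 were lower, and 5 of 6 after each of those scalings. Of 7 central protuberance genes 5 were lower, with a median of -0.16, about the share of protein-coding genes at the same levels (67.7%, or 4.74 of 7). There MRPL38, MRPL40, MRPL27, MRPL58 and MRPL48 were lower, MRPL46 equal and MRPL18 higher. MRPL58 codes for a peptidyl-tRNA hydrolase that was taken up into the ribosome and was at 10.19 with compound 1 and 10.35 with the antagomir. Of the 5 measured proteins of the decoding centre and messenger channel, MRPS12, MRPS2 and MRPS7 were higher and MRPS5 and MRPS11 lower, at -0.012 and -0.031, with a median of 0.090. After quantile normalization, cyclic loess or subtraction of bin medians all 5 were higher. MRPS35, lower in the deposited values and under each of those scalings, was taken off this list in the same change. With it 3 of 6 were lower in the deposited values and 1 of 6 under each of those scalings, where 68.8% of protein-coding genes at the same levels were lower in the deposited values.

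By evolutionary origin of the protein, medians lay closer together among MRPL genes than among MRPS genes, a difference that was not tested. MRPL genes with a bacterial counterpart had a median of -0.15 (25 of 29 lower) and those specific to mitochondria -0.16 (17 of 19 lower). Among MRPS genes the 13 with a bacterial counterpart had a median of -0.017, with 8 lower. The 12 counted as specific to mitochondria, MRPS30, MRPS18A and MRPS18B among them, had a median of -0.11, with 9 lower. MRPS18A and MRPS18B, at -0.13 and -0.24, belong to a family with a bacterial relative, so their place in this group is open to question. Medians with these genes moved were not computed. Between 66.6% and 68.1% of protein-coding genes at the levels of these 4 groups were lower. After subtraction of bin medians these values were -0.074 and -0.091 for the MRPL genes, and 0.048 with 2 of 13 below and -0.055 with 8 of 12 below for the MRPS genes.

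Promoters were looked up because most MRPL genes shared a direction. RefSeq promoter sequences of GRCh38.p14, from 250 bases before to 50 after the annotated start, were matched for 41 MRPL and 24 MRPS genes. They were searched on both strands for 5 sets of letters: GCGCANGCG, known from the factor NRF1, CCGGAAGT of ETS factors, AAGATGGC of YY1, the CCAAT box CCAAT and the TATA box TATAAA. The YY1 letters were in 12 of 41 MRPL promoters (29.3%) and 7 of 24 MRPS promoters (29.2%), and in 3.91% of 15843 promoters of protein-coding genes. The ETS letters were in 22.0% of MRPL, 8.33% of MRPS and 6.19% of all promoters, and the NRF1 letters in 24.4%, 8.33% and 11.02%. The share with the NRF1 letters depends on their length: with a further C at the end it was 14.6% of MRPL, 8.33% of MRPS and 8.58% of all promoters. The NRF1 letters can match both strands at the same place, and none of the 5 contains another. CCAAT was in 26.8% of MRPL and 33.3% of MRPS promoters against 36.4% of all, and TATAAA in 2.44% and 4.17% against 9.63%. A match describes the letters only and does not show that a factor binds. The YY1 letters contain ATG, the letters of a start codon, and the search ran 50 bases past the start. A YY1 match there can therefore be the beginning of a coding sequence, which was not examined. The 250 bases before the start are shown for the MRPL and MRPS genes of lowest and highest difference for which a promoter sequence was used here, with matches in capitals.
MRPL52: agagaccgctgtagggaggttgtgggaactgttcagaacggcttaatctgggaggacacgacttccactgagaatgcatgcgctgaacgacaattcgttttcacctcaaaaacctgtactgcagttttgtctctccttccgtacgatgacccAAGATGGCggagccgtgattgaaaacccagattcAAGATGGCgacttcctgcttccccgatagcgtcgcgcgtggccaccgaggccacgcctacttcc
MRPL51: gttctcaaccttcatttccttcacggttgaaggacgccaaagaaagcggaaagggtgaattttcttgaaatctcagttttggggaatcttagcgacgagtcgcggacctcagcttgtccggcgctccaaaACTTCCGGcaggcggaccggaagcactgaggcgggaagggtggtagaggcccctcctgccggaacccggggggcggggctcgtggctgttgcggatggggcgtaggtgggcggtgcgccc
MRPS33: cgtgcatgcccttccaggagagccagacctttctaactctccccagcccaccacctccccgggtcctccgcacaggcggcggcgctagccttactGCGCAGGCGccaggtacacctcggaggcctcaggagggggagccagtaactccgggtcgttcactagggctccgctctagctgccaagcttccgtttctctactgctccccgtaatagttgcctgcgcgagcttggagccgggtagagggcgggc
MRPS26: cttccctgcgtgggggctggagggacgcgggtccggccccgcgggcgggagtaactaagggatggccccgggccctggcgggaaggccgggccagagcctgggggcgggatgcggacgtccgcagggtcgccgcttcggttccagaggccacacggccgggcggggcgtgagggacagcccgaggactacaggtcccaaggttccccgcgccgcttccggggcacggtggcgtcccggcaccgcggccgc
These lie at chr14:22829637-22829886 (plus strand), chr12:6493263-6493512 (minus strand), chr7:141014953-141015202 (minus strand) and chr20:3045802-3046051 (plus strand). The MRPL52 stretch holds the YY1 letters at 98 and 64 bases before the start, that of MRPL51 the ETS letters in reverse at 120 bases, and that of MRPS33 the NRF1 letters at 155 bases. The MRPS26 stretch holds none of the 5. The shares above also count matches that reach past the printed stretch. There MRPL52 has the ETS letters in reverse from 6 bases before the start, and MRPL51 the YY1 letters from 21 bases after it.

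The YY1 letters occurred in promoters of genes at both ends of the range of differences. Of the 20 matches in 19 members 16 read forward and 14 began at or after the start, where the letters can be those of a start codon. Windows of 24 bases are shown, read on the strand of the match with its letters in capitals, for the 3 lowest and the 3 highest members that hold it, the one nearer the start in MRPL52.
MRPL52: ccagattcAAGATGGCgacttcct
MRPL38: ccggagggAAGATGGCggcgccct
MRPS18B: cgtacgtcAAGATGGCggcgtctg
MRPS7: ggccagccAAGATGGCtgcccccg
MRPL51: taaggcccAAGATGGCtgtcttcg
MRPS12: cccggtccAAGATGGCtgcgtcca
They lie at chr14:22829815-22829838 (plus), chr17:75904863-75904886 (minus), chr6:30617855-30617878 (plus), chr17:75261890-75261913 (plus), chr12:6493226-6493249 (minus) and chr19:38930724-38930747 (minus). The first 3 of these genes had differences of -0.37, -0.26 and -0.24 and the last 3 of 0.090, 0.13 and 0.15. MRPL genes with the YY1 letters had a median difference of -0.13 (10 of 12 lower) and those without it -0.15 (26 of 29 lower). MRPL genes with and without the ETS letters both had -0.15, and those with and without the NRF1 letters -0.17 and -0.15. MRPS genes with the YY1 letters had a median of -0.080 (5 of 7 lower) and those without it -0.029 (12 of 17 lower). The 2 MRPS genes with the NRF1 letters, MRPS33 and MRPS9, had -0.44 and -0.017, against a median of -0.032 in the 22 without. Those with and without the ETS letters had -0.049 in 2 genes and -0.032 in 22. None of these differences between promoters was tested.

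The members are scattered over 21 chromosomes of GRCh38.p14. Chromosome 11 holds the most MRPL genes, 7, all of which were lower, with a median of -0.15, and chromosome 2 holds 6, also all lower, with a median of -0.20. On chromosome 6, 1 of 3 MRPL genes was lower (MRPL2, with MRPL14 and MRPL18 higher), and all 3 MRPS genes were (MRPS18B, MRPS18A and MRPS10). The counts per chromosome are small and were not tested.

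Some members start near a neighbour gene that runs the other way. Whether such genes share a promoter was not tested. An opposite protein-coding start lay within 1000 bases upstream for 12 of 41 MRPL genes (29.3%) and 5 of 24 MRPS genes (20.8%), against 10.3% of all promoters searched. In 7 of the MRPL pairs the neighbour was measured, and 6 of these neighbours were lower on the compound 1 array, where 61.2% of protein-coding genes at the neighbours' levels were. After subtraction of bin medians 5 of the 7 were below 0, since MRPS11, itself a member, turned to 0.047. EME1, a structure-specific endonuclease subunit gene whose start lies 45 bases from that of MRPL27, was at 7.33 with compound 1 and 7.70 with the antagomir (-0.37). SKA3, a kinetochore gene 106 bases from MRPL57, was at 10.19 against 10.52 (-0.33). FAU, which encodes a cytosolic ribosomal protein fused to a ubiquitin-like part, lies 49 bases from MRPL49 and had -0.20, as did MRPL49 itself. CYB5RL beside MRPL37 was the exception, higher by 0.17. MRPL46 and MRPS11 are such a pair within the family, with starts 320 bases apart, and both stood near 0. The MRPS genes gave fewer pairs, with PTCD2 at -0.21 beside MRPS27 and PIERCE1 at -0.33 beside MRPS2, which was itself higher.

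Transcripts that overlap members or copy them were read separately. The antisense RNA genes MRPL20-AS1 and MRPL23-AS1 were higher by 0.21 and 0.12, while MRPL20 and MRPL23 had differences of -0.19 and -0.29. Pseudogenes can share probes with their parent genes. MRPL45P2 was at 7.23 with compound 1 and 7.53 with the antagomir (-0.30), whereas MRPL45 had a difference of -0.042, and MRPL42P5 and MRPS31P5 were below a level of 5 on both arrays.

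Other genes of mitochondrial protein synthesis differed by list. Of 5 ribosomal proteins without an MRP symbol 3 were measured, all of the small subunit, and all were lower. PTCD3, whose product binds RNA, was at 9.35 with compound 1 against 9.61 with the antagomir (-0.25). CHCHD1 was at -0.14 and the GTP-binding protein gene DAP3 at -0.047. At the same levels 65.0% of protein-coding genes were lower, or 1.95 of 3. After subtraction of bin medians DAP3 turned to 0.027, which left 2 of 3 below 0, with a median of -0.11. These 3 small subunit genes are not in the counts by structure above, which hold MRP symbols only. Assembly factors of the ribosome were lower in 20 of 22 measured members of 25 listed, with a median of -0.14, or -0.063 with 16 of 22 below after subtraction of bin medians, where 63.4% of protein-coding genes at the same levels were lower before it. RCC1L was the lowest, at 8.25 with compound 1 and 8.54 with the antagomir (-0.29), and MPV17L2 the highest, at 9.01 against 8.85 (0.16). The 8 measured of 12 translation factors had a median of -0.057 with 7 lower, where 66.9% at the same levels were, and 0.016 with 3 below after subtraction of bin medians. There the elongation factor gene GUF1 was lowest (-0.11) and the release factor gene MTRF1L highest (0.029). Of 8 genes of mitochondrial transcription and RNA binding 5 were measured and 4 were lower, from PNPT1 at -0.18 to the mitochondrial RNA polymerase gene POLRMT at 0.088. At the same levels 60.6% of protein-coding genes were lower, or 3.03 of 5, and after subtraction of bin medians 4 of 5 were below 0. The 17 mitochondrial tRNA synthetases were not analysed here.

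Nuclear subunits of the respiratory chain and ATP synthase were taken by symbol, with tissue-specific forms and the inhibitor ATP5IF1 included. The 23 genes found were UQCR, CYC1 and COX genes with ATP5IF1, ATP5MJ and ATP5MK. No NDUF or SDH gene was among them, so the list covers only part of the chain. Of these genes 20 were lower, with a median of -0.12, where 57.9% of protein-coding genes at the same levels were lower (13.3 of 23). After subtraction of bin medians 16 of 23 were below 0, with a median of -0.063. They ran from UQCRHL at -0.34 to COX7B2 at 0.22. Cytosolic ribosomal proteins and their paralogues were lower in 42 of 53 genes with a median of -0.078, from RPS26 at -0.37 to RPL3L at 0.27, where 64.6% at the same levels were lower (34.2 of 53). After subtraction 28 of 53 were below 0, with a median of -0.0036. The MRPL median after the same subtraction, -0.079, was thus below that of each of these lists but 1. The exception was the 3 small subunit proteins without an MRP symbol, at -0.11. The MRPS median of 0.040 was above all of the lists. No test was made of these orders.

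**Figure D4:**
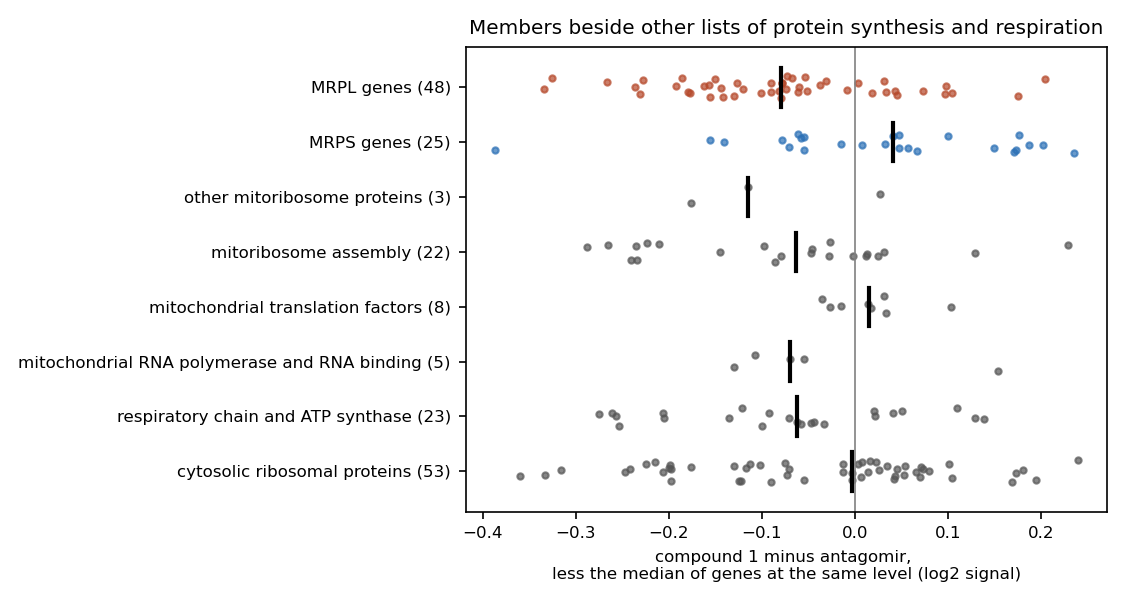
Difference of each gene (compound 1 minus antagomir, less the median of protein-coding genes at the same level, log2 signal) for the members and for other lists, with the number of genes in brackets. Points are genes, spread vertically at random, and black bars are medians: -0.079 for MRPL genes and 0.040 for MRPS genes. The list of the respiratory chain and ATP synthase holds no NDUF or SDH gene.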

How the data were processed

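The deposited table holds 1 log2 signal per transcript cluster and array, for 2 arrays. Per the labels, biotin-labelled cRNA was made from 5 ug of total RNA by the standard Affymetrix protocol and analysed at gene level. The log base was taken as 2 from the range of the deposited log2 values (0.37 to 14.20 on the compound 1 array and 0.61 to 14.19 on the antagomir array). The authors' background correction and normalization are not stated in the labels.

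Of 53617 clusters, 16098 had 1 gene symbol in the platform's probe table, 0 had several and the others are unnamed here. Gene types came from RefSeq for GRCh38.p14, in which 0 symbols needed an update. A gene was represented by its cluster of highest mean level, with no filter and no further scaling. Alternatives were 4 scalings, 3 filters, the mean over clusters, omission of identical values, subunits by structure and other folds. Sets were described by counts and medians beside all protein-coding genes, since 1 array per treatment allows no test. The level bins and the subtraction of their medians were tested on simulated data, and the other steps were not. The members and lists were chosen with earlier results of these data known. Every member is named. Levels are given for the 10 MRPL and 10 MRPS genes of largest difference, members with several clusters, MRPL genes higher by over 0.05 and those of known special place; from each other list its lowest and highest gene is named. EME1, SKA3, FAU, CYB5RL, PTCD2, PIERCE1, CHCHD1, DAP3 and MALSU1 were chosen after their values were seen. Exit tunnel and messenger channel lists were revised once after values were seen, with MRPL39 and MRPL47 added and MRPS35 removed; both versions are reported, the first as an alternative added after seeing the data. Software was limma 3.58.1 in R 4.3.3 for quantile normalization and cyclic loess, and numpy 2.4.6 and pandas 2.3.3 in Python 3.11.15 for the rest, with figures by matplotlib 3.10.9. The number of arrays limits the precision.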

Additional observations from a re-analysis of the deposited data

How the results depend on the processing

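No paired analysis was possible because neither treatment has a replicate, and none could be left out. After quantile normalization, cyclic loess and subtraction of level bin medians, in this order, the MRPL median was -0.088, -0.091 and -0.079, with 15, 17 and 16 genes lower past 1.1-fold and 2 higher each time. In the same order the MRPS median was 0.039, 0.019 and 0.040, turning sign, with 11, 11 and 10 genes lower, 3 lower past 1.1-fold each time, and 7, 6 and 7 higher past it. Centring on the median of protein-coding genes gave 1 MRPL gene higher and 3 MRPS genes lower past 1.1-fold. Under these scalings the share of all protein-coding genes past 1.1-fold was not counted. At 1.2-fold 6 MRPL and 1 MRPS genes were lower and 0 MRPS genes higher, and at 1.5-fold 0 of each. The mean over both clusters turned MRPL44 to 0.12. The cause of these moves was not tested. Of the other values under the alternatives, 63 on groups and 126 on single genes or places in the ribosome stayed within the tolerance. It was 0.05 for a median, 1.5 times for a count and 1 robust SD of genes at the same level for a single gene. For single genes this decides little. In each bin with a member, the shifts by centring and by the bin median were smaller than 1 robust SD, so neither could pass it. The mean over clusters cannot change a gene with 1 cluster. MRPL10 turned from -0.0058 to 0.043 after subtraction of the bin median and still counted as within the tolerance. The 50th percentile filters removed 0 members, so they could not change a value. The 75th percentile kept 64 members. Signal over background limits no member by these filters, but the spread of genes at low levels is wider than at high ones.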
